A study of Arabidopsis thaliana with 8 samples.

Results

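Plates TA21 to TA30 of a tiling array of Arabidopsis thaliana chromosome 4 form a block of tiles with low log ratios of H3K4me2 chromatin immunoprecipitation (ChIP). A tile is one spotted stretch of the chromosome, named by plate set, plate number and well. The block was taken by name, as every tile whose name starts with TA, has a plate number from 21 to 30 and carries values in all 4 replicates. It holds 822 of the 21285 tiles that meet the same condition on the whole array. Of 886 listed rows on these 10 plates, the other 64 are blank in every replicate. The plates were proposed because their ratios are low in these same data, so their level is a description here and was not tested. The values analysed are ratios without spot intensities, so low refers to the ratio and not to the brightness of the spots.

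All samples come from whole seedlings of Col-0, the accession whose genome was sequenced first in this species, grown without treatment for 10 days in liquid medium under a long photoperiod. There is 1 group. In each of 4 replicates, DNA recovered from 50 µg of chromatin by immunoprecipitation of H3K4me2, histone H3 carrying 2 methyl groups on lysine 4, was set against input DNA on a pair of arrays with the dyes exchanged. The labels credit the immunoprecipitated chromatin of replicates 2, 3 and 4 to a single seedling preparation and that of replicate 1 to another, while each input has its own preparation. Each array's title opens with a pair of numbers whose meaning the labels do not give. The second number is shared between replicates 1 and 2, and between replicates 3 and 4. Separate plants or cultures are therefore not established, and the spread between replicates may be technical. A value is an average over all cells of the seedling, so fewer marked cells and less mark per cell cannot be told apart.

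H3K4me2 is one of the methylation states of lysine 4 on the tail of histone H3. In Arabidopsis it lies mainly over genes, and the silent, repeat-rich chromatin around centromeres and in heterochromatic knobs carries little of it. Silent chromatin of this plant is instead marked by dimethylation of lysine 9 on histone H3 and by DNA methylation. Chromosome 4 of Col-0 is known for a heterochromatic knob on its short arm besides the chromatin around its centromere. The tile names give no position, and no gene or sequence could be paired with them here, so no tile is placed in any of these regions. The deposited labels do not settle whether the ratio is immunoprecipitated over input or the reverse. The words above and below follow the sign of the deposited values, and whether low values mean little H3K4me2 depends on that direction.

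The block lay far below the rest of the array in each replicate. Its median log2 ratio, after each replicate was centred on the median of all tiles, was -2.21, -1.87, -2.29 and -1.88 in replicates 1 to 4, with the deposited logarithms taken as log2. The mean of these medians was -2.06 ± 0.22 (SD, n = 4), 4.18-fold below the median tile. Replicates 1 and 3 were lower than replicates 2 and 4, and all 4 were clearly negative. The 20463 other tiles had a median of 0.06 ± 0.00. The neighbouring plates TA01 to TA20 had 0.16 ± 0.04 over 1866 tiles, and TA31 to TA36 had -0.12 ± 0.03 over 559.

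Low values were spread through the block but did not fill it. Of its tiles, 74.1% had a mean over replicates below -1, 52.3% below -2 and 17.5% below -3. The same limits were passed by 24.1%, 11% and 2.54% of the other tiles. At the upper side, 106 block tiles, or 12.9%, had a mean above 0, and 42 had a mean above 1. The middle of the block was thus low while a minority of its tiles reached ordinary values. The lowest mean in the block was -4.50 and the highest 2.0, against -5.31 and 5.06 among the other tiles.

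**Figure D1:**
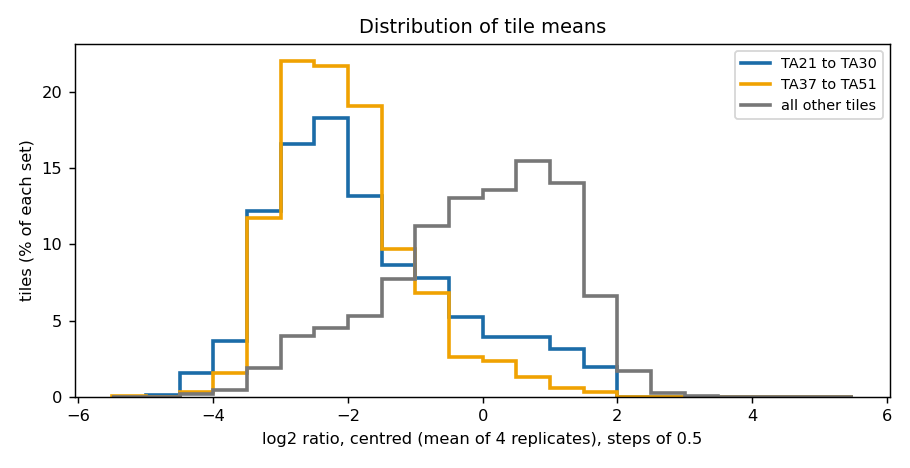
Share of tiles (%, vertical axis) by mean centred log2 ratio over 4 replicates (horizontal axis, steps of 0.5) for TA21 to TA30, for TA37 to TA51 and for all tiles outside TA21 to TA30, which include TA37 to TA51. The block peaks between -2.5 and -2 with 18.2% of its tiles and keeps a tail to 2, while the other tiles peak between 0.5 and 1 with 15.5%.

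A sign shared by all 4 replicates was found for most tiles. In the block, 693 tiles, or 84.3%, were below the median tile in 4 of 4 replicates, where 43.2% of all tiles were. Another 92, or 11.2%, were above it in 4 of 4 replicates, where 43.0% of all tiles were, and 37 had mixed signs. Tested against the median tile with limma over all tiles (Benjamini-Hochberg adjusted p under 0.05), 693 block tiles were called below and 92 above, beside 41.9% and 42.1% of all tiles. Despite the equal numbers these are not wholly the same tiles, since 691 and 89 met both rules. Because these values chose the block, nothing is read from either count.

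Another low run of plates, TA37 to TA51, was as low and more uniform. No low run outside the TA plates was compared. Its median was -2.18 ± 0.39 (SD, n = 4) over 1339 tiles. The interquartile range over tiles was 2.07, 1.58, 2.06 and 1.60 in TA21 to TA30 in replicates 1 to 4. In TA37 to TA51 it was 1.30, 1.19, 1.30 and 1.17. In each replicate the tiles of TA21 to TA30 were thus the more widely spread. Tiles with a mean above 0 made up 4.48% of TA37 to TA51, against the 12.9% given above. Both sets of plates were chosen for their low level, and these differences were not tested.

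The plates of the block fell into a lower first part and a less low second part. Medians of TA21 to TA25 lay between -2.57 on TA25 and -2.07 on TA24 (means of 4 replicates), and those of TA26 to TA30 between -1.94 on TA28 and -1.38 on TA30. In every replicate the highest median of the first 5 plates was below the lowest of the last 5. In replicate 1 these were -2.18 and -2.11, in replicate 2 -1.81 and -1.76, in replicate 3 -2.44 and -2.20, and in replicate 4 -1.84 and -1.68. The gap between neighbouring ranks is small. Pooled over tiles, TA21 to TA25 had a median of -2.36 ± 0.30 over 393 tiles and TA26 to TA30 -1.63 ± 0.10 over 429. This division was seen in the data and was not tested.

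**Figure D2:**
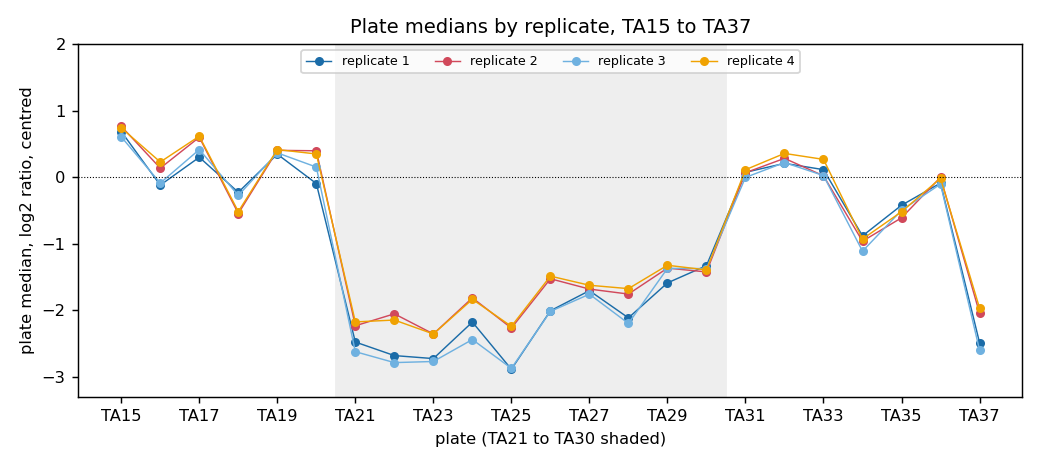
Median centred log2 ratio of each plate (vertical axis) from TA15 to TA37 (horizontal axis), with 1 point per replicate and the block shaded. All 10 block plates sit below -1 in all 4 replicates, between TA20 at 0.20 and TA31 at 0.06, and replicates 1 and 3 run below 2 and 4 on 9 of the 10 plates.

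Tiles above the median tile were also unevenly placed. On TA21 to TA25, 22 tiles, or 5.60%, were above it in all 4 replicates, and on TA26 to TA30 there were 70, or 16.3%. Plate TA22 held 0 such tiles among 58, and TA27 held the most, 22 of 91. Means below -3 were found for 25.4% of the tiles on the first 5 plates and 10.3% on the last 5. The higher level of the later plates thus came with more high tiles and fewer very low ones.

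Rows of 12 wells differed more than plates did, with medians from -3.93 to 0.99 against -2.57 to -1.38 (means of 4 replicates). Plate medians rest on 58 to 93 tiles, and medians of fewer tiles range more widely for that reason alone. Of 79 rows of wells with any tile, 76 held at least 6. Medians were below 0 in all 4 replicates in 69 of these, below -2 in 32 and below -3 in 1, which was row A of TA21. Its 8 tiles had medians of -3.69, -4.04, -3.85 and -4.14. In 6 rows the median was above 0 in all 4 replicates: TA25 row C, TA26 rows D and E, TA27 rows F and G, and TA29 row B. Row F of TA27 had 0.94, 0.95, 1.08 and 0.84 over 12 tiles, and the next row but one, H, had -2.66, -2.65, -2.43 and -2.47 over 11. Row G between them was still high, and the change from F to H was larger than the spread between replicates of either row.

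**Figure D3:**
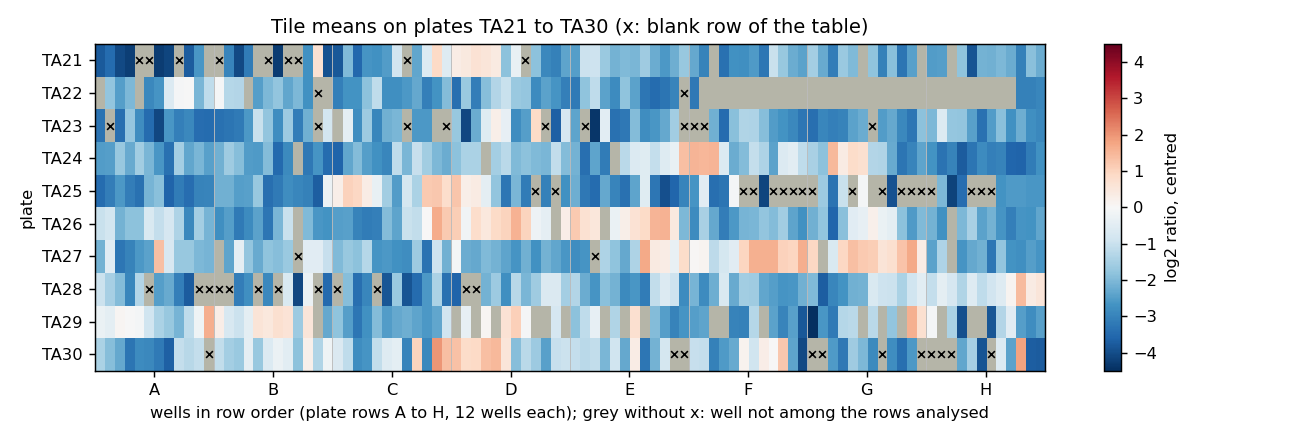
Mean centred log2 ratio (colour) of each tile on TA21 to TA30, 1 line per plate, with wells in row order along the horizontal axis. High tiles (red) form patches, with the longest unbroken run on TA27. Crosses mark the 64 blank rows, and grey without a cross marks wells not among the rows analysed.

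Runs of consecutive wells with the same sign in all 4 replicates show the grain of the block. The 693 tiles below the median tile formed 104 runs with a mean length of 6.66 wells, and 429 of them lay in 22 runs of 10 or more. Above the median tile there were 31 runs with a mean length of 2.97, of which 12 had 4 wells or more and held 65 of the 92 tiles. A blank or unlisted well ended a run, so lengths are lower bounds. Runs above were short, and none reached 10 wells.

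The longest low run covered 53 wells from TA28D04 to TA28H08, with medians of -1.83, -1.58, -1.90 and -1.53 in replicates 1 to 4. It was long but shallow: its first tile had a mean of -2.13 ± 0.25 and its last -0.60 ± 0.13 (SD, n = 4). A run of 41 wells from TA24G07 to TA25B11 was deeper, with medians of -3.5, -2.53, -3.34 and -2.58. The third, 35 wells from TA22C01 to TA22E11, had -2.92, -2.06, -2.89 and -2.17. In both of these deeper runs replicates 1 and 3 were lower than 2 and 4 by more than 0.7. Length and depth did not go together among the 3.

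Against an upper quartile of 0.93 among outside tiles, the 3 longest high runs had medians of tile means of 1.12, 1.32 and 1.32. The longest, 9 wells from TA27G04 to TA27G12, had medians of 0.66, 1.24, 0.93 and 1.34. Just before it lay a run of 8 wells from TA27F06 to TA27G01, with 1.19, 1.27, 1.29 and 1.25. Only TA27G03 stood between them among the tiles with values, at -0.69 ± 0.30 (SD, n = 4). A longer stretch of mostly high tiles lay on TA26, from TA26C11 to TA26E11. The tiles that broke it had means between -0.41 and -0.14. A further run of 8 wells, TA30C11 to TA30D06, had medians of 1.06, 1.38, 1.25 and 1.45. Runs of 6 wells lay on TA26, from TA26D03 to TA26D08 and from TA26E06 to TA26E11, with means of 4 replicates between 0.27 and 1.58.

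The highest tile of the block, TA30C11, had values of 1.70, 2.15, 2.08 and 2.07 and a mean of 2.0 ± 0.20 (SD, n = 4). TA30H10 followed with 1.76, 1.89, 1.79 and 1.74. TA27E08 had 1.45, 1.82, 1.90 and 1.71, so replicate 1 was the lowest of the 4 for TA30C11 and TA27E08. TA27G11 and TA26C11 completed the 5 highest, with means of 1.71 and 1.66. TA27G11 and TA30C11 belong to the long high runs, TA27E08 and TA26C11 start runs of 3 wells, and TA30H10 stands alone.

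At the other end, TA29G01 had -5.08, -4.30, -4.51 and -4.13, with a mean of -4.50 ± 0.41 (SD, n = 4). TA23E03 had -4.19, -4.42, -4.32 and -4.62. TA21B07, TA21A07 and TA21A04 came next with means of -4.28, -4.27 and -4.25. In the last 4 of these tiles replicates 2 and 4 were the lower ones, the reverse of the block as a whole, and in TA29G01 replicate 1 was lowest. The 2 tiles nearest the median of the block were TA21E07 and TA22A11, and they differed in spread. TA21E07 had -2.77, -1.31, -2.80 and -1.35, and TA22A11 had -1.91, -2.12, -2.08 and -2.09.

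Neighbouring wells were similar, and the similarity faded within 24 wells. Along the plate rows the correlation of mean values across tiles was 0.663 at 1 well (745 pairs), 0.155 at 12 wells and -0.02 at 24 wells. Down the columns it was 0.136 at 1 well. These correlations describe tiles of the same 4 replicates and are not replicated. For single replicates the value at 1 well was 0.696, 0.616, 0.698 and 0.602 in replicates 1 to 4, against 0.558, 0.511, 0.550 and 0.509 on TA37 to TA51. For mean values, TA37 to TA51 had 0.085 at 12 wells and 0.051 at 24, so the similarity faded there too. Tiles outside the block had 0.750 at 1 well and still 0.390 at 24, a range that mixes plates of unlike level. Within the block, level thus varied on the scale of about 1 plate row.

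Some neighbours nevertheless differed sharply. The mean value changed by more than 2 between 57 of 745 neighbouring pairs, or 7.65%, and between 4.24% of 20033 pairs outside the block. The largest step fell from TA30H10 at 1.79 to TA30H11 at -3.73, a difference of -5.07, -5.88, -5.36 and -5.77 in replicates 1 to 4. From TA30C10 to TA30C11 values rose by 4.91 ± 0.23 (SD, n = 4), and from TA21B11 to TA21B12 they fell by 4.62 on average. In all 3 steps the difference had the same sign in 4 of 4 replicates and was over 10 times its SD. The 2 highest tiles of the block thus stand directly beside very low ones.

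**Figure D4:**
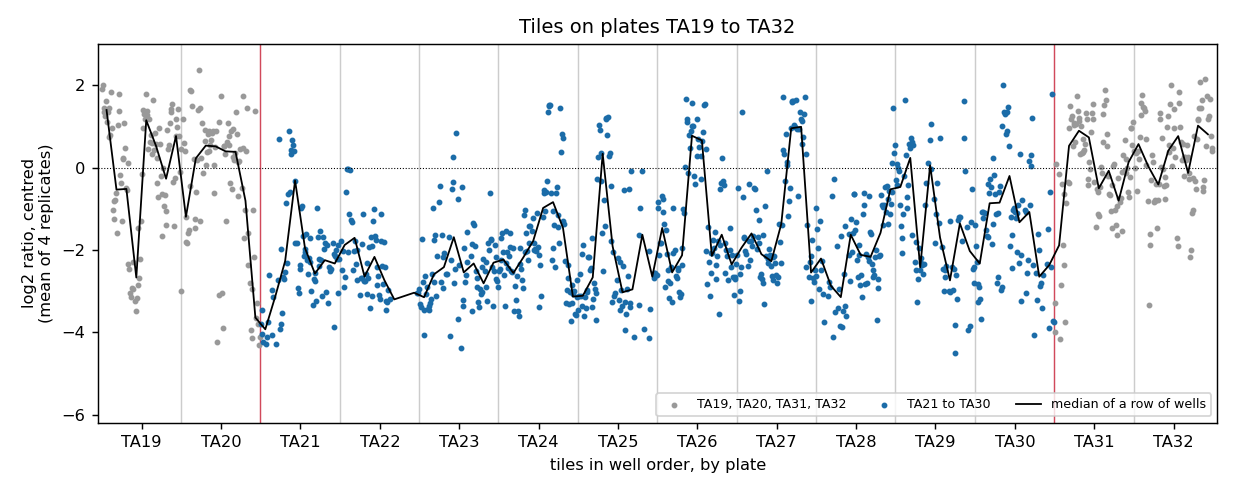
Mean centred log2 ratio over 4 replicates (vertical axis) of tiles in well order from TA19 to TA32 (horizontal axis), block tiles in blue, flanking tiles in grey, medians of rows of wells as a black line and the block's outer plate borders in red. The low stretch that holds the block begins in the last wells of TA20 and ends in the first wells of TA31. The line also falls low before it, to -2.67 in row D of TA19, and rises above 0 at several places inside.

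Both edges of the block lay outside its plate borders. A least-squares change point in the 2 plates around the first border fell between TA20G08 and TA20G09, 16 wells before TA21, in the mean and in each of the 4 replicates. TA20G08 had 1.15, 1.52, 1.49 and 1.60, and TA20G09 had -1.76, -1.35, -1.75 and -1.54. The mean level changed there by -2.12, -2.40, -2.43 and -2.42 in replicates 1 to 4. For the mean of replicates the change took up 43.9% of the squared deviations of these tiles. From TA20G09 to TA20H12, 13 of 14 tiles were below the median tile in all 4 replicates, and their median was -3.14 ± 0.17, lower than that of the block. The exception was TA20H06, at 1.37. The low stretch thus started inside TA20 and deepened towards the border. Low tiles also lay before it, such as TA20D08 at -4.24 and TA20E03 at -3.89, and row D of TA19 had a median of -2.67.

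The deepest values continued across the border. TA20H12, the last tile of TA20, had -3.91, -4.25, -3.98 and -4.28. TA21A01, the first of TA21, had -3.52, -3.94, -3.70 and -4.04. TA21A01 was the less low of the pair in each replicate, and the ranges of the tiles overlap. Of the 44 block tiles with a mean below -3.5, 12 lay on TA21, all but TA21H05 in rows A to C. Over the next rows levels rose, to -2.27 ± 0.13 in row C and -0.32 ± 0.17 in row D of TA21, and fell again to -1.96 ± 0.60 in row E.

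The far edge was less sharp. Its change point fell between TA31B03 and TA31B05, 16 wells into TA31, in the mean and in every replicate. TA31B03 had -0.74, -1.07, -0.65 and -0.97, and TA31B05 had -0.44, -0.27, -0.46 and -0.21. The mean level changed by 1.67 ± 0.03 (SD, n = 4), a smaller step than at the first edge, where it fell by 2.34 ± 0.15. For the mean of replicates the change at the far edge took up 30.4% of the squared deviations. The last tile of TA30, TA30H12, had -3.47, -3.89, -3.68 and -3.98, and the first of TA31, TA31A01, had -2.99, -3.42, -3.29 and -3.5. Among the 12 tiles from TA31A01 to TA31B03, 10 were below the median tile in all 4 replicates, with values between -4.15 and 0.10. Past the change point, TA31B05 and TA31B06 were still below 0, and the tiles from TA31B07 to TA31C09 had means between 0.32 and 1.73. Low and ordinary tiles were thus mixed on this side.

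Medians of whole plates also changed at both borders. TA21 had a median of -2.38 ± 0.21 and TA20 of 0.20 ± 0.22, and TA30 had -1.38 ± 0.04 and TA31 0.06 ± 0.05 (SD, n = 4). The block median minus that of TA20 was -2.11, -2.27, -2.44 and -2.23 in replicates 1 to 4. Minus that of TA31 it was -2.28, -1.94, -2.28 and -1.99. Every replicate therefore showed both differences, which are part of how the block was chosen and were not tested.

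Neither a tile's place within its plate nor an even or odd plate number was used to choose the block, so both were tested. In 4 of 4 replicates even-numbered plates were higher than odd ones, by 0.23, 0.29, 0.17 and 0.24. The mean difference was 0.23 ± 0.05 (SD, n = 4), with a p of 0.125 in the exact two-sided sign-flip permutation test and 0.375 after Benjamini-Hochberg adjustment over 3 comparisons. With 4 replicates 0.125 is the smallest p this test allows, so it cannot reach 0.05. It flips signs over 4 replicates of the same plates and does not measure the variation between plates. By plate medians, TA24, TA26 and TA30 were above the plate before them, and TA22 and TA28 were below it. The less low TA26 to TA30 hold more even than odd plates, and TA21 to TA25 the reverse. That rise in level and the even-odd difference were therefore not separated. Rows A to D exceeded rows E to H by 0.09 ± 0.11, with the sign shared by 3 of 4 replicates and an exact p of 0.375. Columns 1 to 6 exceeded columns 7 to 12 by 0.02 ± 0.03, also in 3 of 4 and with an exact p of 0.375. The last 2 differences were within the spread between replicates.

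Replicates differed more in the block than in most of the array. The SD over 4 replicates had a median of 0.254 over block tiles and 0.219 over the others. It exceeded 0.5 for 160 block tiles, or 19.5%, against 9.55% of the others, 7.02% on TA01 to TA20 and 7.33% on TA31 to TA36. On TA37 to TA51 the share was 33.3%. The block thus lay between its own neighbours and TA37 to TA51, in a comparison that was not tested and not matched for level. Among tiles of like level, described further below, the spread was not consistently wider in the block.

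Most of the spread had a common order. Replicate 1 was below replicate 2 by a median of 0.18 and replicate 3 below replicate 4 by 0.23, each pair sharing a number in the titles. Both differences were negative for 463 tiles, or 56.3%, and both positive for 227, or 27.6%, against 43.0% and 33.8% of the other tiles. The order was more pronounced on TA37 to TA51, where 76.4% and 9.19% of the tiles had such differences and the medians were -0.59 and -0.61. On TA01 to TA20 the shares were 37.5% and 42.6%, so both positive was the more frequent case there. On TA31 to TA36 they were 41.9% and 33.6%. These shares were not tested against each other. Across tiles the correlation was 0.983 between replicates 1 and 3 and 0.991 between 2 and 4, and it lay between 0.904 and 0.919 for the other 4 pairs. Outside the block these last pairs had 0.929 to 0.938. The order follows neither the shared numbers nor the shared immunoprecipitated chromatin, and its source was not tested.

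The shared number in the titles was compared as a possible batch. Replicates 1 and 2 minus replicates 3 and 4 had a median of 0.02 over the block tiles and 0.00 over the others. With limma, 0.0% of all tiles and 0 of the 822 block tiles passed an adjusted p of 0.05. At an unadjusted p under 0.05 there were 28 tiles on the whole array and 0 in the block. Since replicates 1 and 2 differ from each other, as do 3 and 4, the error of this comparison is large, and the count does not show that the pairs were alike.

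Differences between replicates came in stretches of wells. A neighbour 1 well away shared the difference of replicates 1 and 2 with a correlation of 0.613 across tiles, and that of replicates 3 and 4 with 0.582. In 86 tiles, or 10.5%, both differences were below -1, against 3.11% of the tiles outside the block. On TA37 to TA51 the share was 14.5%, and it was 1.34% on TA01 to TA20 and 2.86% on TA31 to TA36. On TA22 these were 24.1% of the tiles, on TA23 17.9% and on TA24 17.2%, and on TA30 2.35%. Both differences were above 1 for 2 block tiles. Over all 21285 tiles they were above 1 for 57 and below -1 for 722. On TA01 to TA20 these counts were 9 and 25, and on TA31 to TA36 0 and 16. Differences of this size were thus mostly negative there too, though scarcer than in the block. Tiles of like level were closer to each other in the share with both differences below -1. For means from -3.5 to -1.5, in steps of 0.5, it was 22.0%, 18.4%, 15.3% and 11.1% in the block. Outside the block it was 12.5%, 14.8%, 13.4% and 10.5%. Within the block the large differences had their highest shares on TA22 to TA24.

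**Figure D5:**
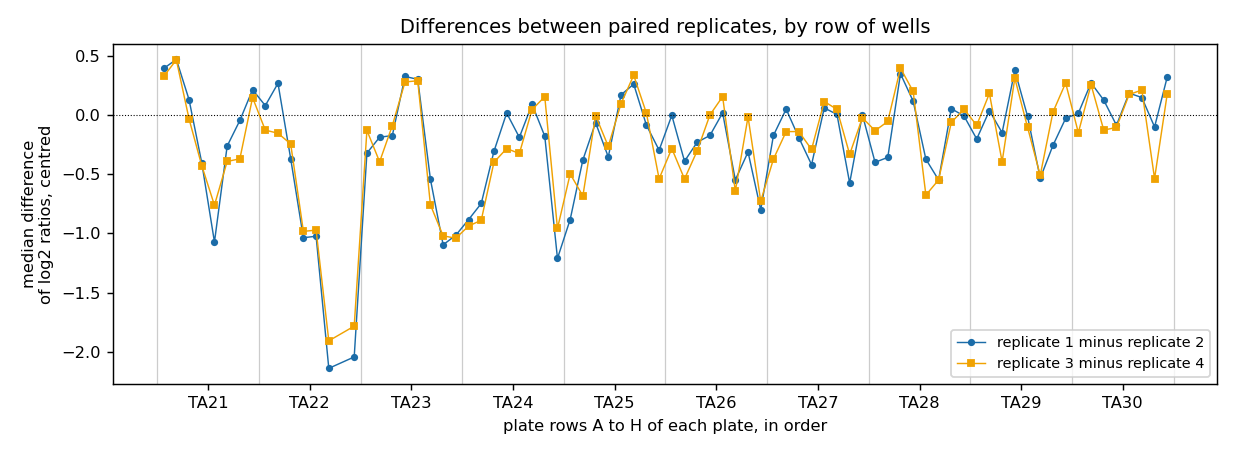
Median difference of centred log2 ratios (vertical axis) between replicates 1 and 2 and between replicates 3 and 4, for each row of wells on TA21 to TA30 in order (horizontal axis). Both lines move together, fall below -0.5 in 13 of the 76 rows with at least 6 tiles, and reach about -2 in rows F and H of TA22, which hold 1 and 3 tiles.

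The largest spread of any block tile was that of TA22H12, with -4.15, -1.87, -3.83 and -1.96 and an SD of 1.20. TA22F01 had -4.31, -2.17, -4.12 and -2.21. TA22B08 had -3.07, -1.42, -3.56 and -1.36. In each, replicates 1 and 3 were low and 2 and 4 were less low, with no overlap. Of the 13 block tiles with an SD over 1, 8 lay on TA22. In the run of 4 wells from TA22E08 to TA22E11, replicates 1 to 4 had medians of -4.36, -2.24, -3.96 and -2.45. A run of 5 wells on TA23, TA23H05 to TA23H09, had -2.93, -1.91, -3.18 and -2.01. Other tiles were tight: TA25E05 had -2.97, -3.0, -2.98 and -2.95, and TA24C10 had -1.54, -1.60, -1.61 and -1.57. The smallest SD was that of TA29A03, with 0.09, 0.11, 0.10 and 0.09. Over the whole block, tiles with means from -3.5 to -1.5 had the wider spread. In steps of 0.5 their median SD was 0.361, 0.303, 0.262 and 0.285, against 0.172 to 0.231 in the steps above and 0.241 below -3.5. In the same steps from -3.5 to -1.5, tiles outside the block had 0.378, 0.412, 0.323 and 0.256.

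The order of the replicates changed with the level. Tiles with a mean between -3.5 and -3 had medians of -3.56, -2.93, -3.46 and -2.93 in replicates 1 to 4 over 100 tiles. Those below -3.5 had -3.81, -3.93, -3.87 and -4.04 over 44 tiles, and in 65.9% of them replicate 2 was below 1 and 4 below 3. The tiles with a mean between -1.5 and -1 had -1.24, -1.26, -1.31 and -1.23 over 71 tiles. Replicates 1 and 3 were thus lower across the middle of the low range and not at its bottom. Outside the block, the 391 tiles between -3.5 and -3 had medians of -3.46, -2.90, -3.5 and -2.95. The 129 outside tiles below -3.5 had -3.76, -3.77, -3.89 and -3.88, and in 53.5% of them replicate 2 was below 1 and 4 below 3. Replicates 1 and 3 were thus lower in the first of these levels there too, while the medians at the second were close together. The tiles were grouped by the mean of the same values, and these shares are a description.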

How the data were processed

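H3K4me2 ChIP and input DNA of Col-0 seedlings were compared on 8 two-colour arrays, 2 per replicate with dyes exchanged. The deposited values are log ratios, taken as log2. No source used here gives the log base, ratio direction, background correction or normalization, and signal over background is unknown. Amplification preceded direct labelling with the dyes, per the labels' protocols. Both arrays of a replicate hold identical values in all 21800 rows, so 1 column per replicate was used (n = 4). The number of arrays limits the precision.

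Each replicate was centred on the median of the 21285 tiles named by plate and well with values, without loess or quantile normalization. The limma fits (version 3.58.1, R 4.3.3, lmFit and eBayes, two-sided) ran over all of these tiles and were tried on simulated data. The simulated replicates were independent, so that trial does not cover replicates that resemble each other in pairs, as these do. Other steps used Python 3.11.15, numpy 2.4.6, pandas 2.3.3, scipy 1.17.1 and matplotlib 3.10.9. A change point needed at least 5 tiles on each side. Wells were ordered along plate rows.

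Named tiles are the 5 highest and 5 lowest, the 3 with the largest and smallest SD, the ends of the 3 longest runs of each kind, the tiles at edges and plate borders, those nearest the block median and the 3 largest steps. Other tiles, plate rows and the split into 5 and 5 plates were picked after their values were seen. The block and these rules were chosen with earlier results of these data known. No sequence or gene is given, since no file used here pairs tiles with either.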

Additional observations from a re-analysis of the deposited data

Results flagged for a closer look

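In 132 sets of 4 replicate values, of the block, its plates and rows, the named tiles and the edge steps, 4 had 1 replicate apart from the other 3 by Dixon's test. Chance flags about 1 in 20 such sets, and 4 of 132 is 3.03%. In row F of TA21 the gap of replicate 3, at -2.92 against -2.48, -2.45 and -2.45, took 0.950 of the range. Tile TA26C11 had 1.53 in replicate 1 against 1.70, 1.72 and 1.72, a gap of 0.928. For tile TA30C11, replicate 1 at 1.70 stood apart by 0.840. The step at the first edge was -2.12 in replicate 1 against -2.40, -2.43 and -2.42, a gap of 0.900. The test looks for a lone replicate and is blind to a split of 2 against 2, such as that of replicates 1 and 3 from 2 and 4.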

How the results depend on the processing

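The median of all tiles as deposited was -0.96, -0.33, -0.71 and -0.38 in replicates 1 to 4. Left there, the block median was -2.66, and centred on the mode -2.91. The mean over tiles was -1.77, as the high tiles pull it up. The median tile SD was 0.440 as deposited, since replicate offsets then count as spread, and 0.233 to 0.263 without one replicate, lowest without replicate 1. Tiles called above in the block fell from 92 to 36 as deposited, 33 with the mode as zero and 51 where a 1.5-fold difference was required too, and over all tiles from 8951 to 4108, 3658 and 5515. Block tiles called below were 720 and 750 on those zeros, against 693. Tiles called below over the array rose from 8926 to 13537 on the mode. Centring on the mode moves the zero, the size threshold leaves out small differences, and the values as deposited both move the zero and widen the spread. The contrast between the pairs that share a number in the titles gave 0 to 8 higher and 0 to 1 lower tiles when one replicate was left out: 8 higher without replicate 4 and 1 lower without replicate 3. One pair then has a lone replicate, whose spread is assumed to match that of the other pair. The longest high run was 5 wells as deposited. With blank and unlisted wells skipped, chosen after seeing the data, low runs numbered 43 and the longest was 81, by construction. In column order there were 71 high and 174 low runs, the longest 3 and 21, and the neighbour correlation was 0.134, since wells next to each other in a column are 12 apart along the rows. The difference between columns turned to -0.015 without TA22, also added later. Tiles TA29A03, TA27G12 and TA30D06 turned to -0.50, -0.27 and -0.065 as deposited, and with TA21B11 to -0.75, -0.52, -0.31 and -0.14 on the mode. Of the 178 alternative values of the main results, 155 stayed the same (counts within 1.5 times), 22 moved in size and 1 reversed. Of 357 alternative values for single plates and tiles, 264 stayed the same, 86 moved in size and 7 reversed. With the pairs as a random block (estimated correlation -0.788) 100 block tiles were called above and 706 below. A negative correlation within pairs makes the error of the mean smaller, so the higher counts do not make the calls firmer. No paired analysis was possible because all replicates belong to 1 group, so that replicate numbers join no samples across groups.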

Other observations

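Blank rows were frequent in the block. Of 886 listed rows, 64, or 7.22%, were blank in all 4 replicates, against 1.97% of 20875 rows elsewhere, 2.41% on TA01 to TA20, 2.95% on TA31 to TA36 and 0.962% on TA37 to TA51. Among the 10 block plates, 5 held 9 or more blanks, as did 5 of the 221 others. TA25 held 18, TA28 12, TA30 11, TA23 10 and TA21 9, while TA24, TA26 and TA29 held 0.

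Tiles beside a blank row were lower than the rest of the block in 4 of 4 replicates. The 71 tiles next to a blank had medians of -2.72, -2.23, -2.76 and -2.16, and the other 751 had -2.18, -1.85, -2.24 and -1.84. The difference was -0.44 ± 0.10 (SD, n = 4). It pools all plates, and both blanks and level varied between plates, so plate and nearness to a blank were not separated. Means below -3.5 were found for 15 of the 71, or 21.1%, and for 29 of the 751, or 3.86%. Both patterns were seen in the data first and were not tested, and why rows are blank is not given in the sources used here.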
